A study of Mus musculus with 46 samples.

Results

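Gcm2, Fbn2, Shisa7, Cd36 and Spn are 5 of the 20999 genes in the RNA count table of mouse microglia. They were selected on RNA levels: earlier results of these data showed them high in microglia that refill the brain after depletion, and Spn higher in the cycling share of those cells. Repopulating libraries chose the genes, so their RNA differences from adult and from neonatal microglia, and the Ki67 difference of Spn in repopulation, are given as descriptions with no test. All cells were from male C57BL/6 mice and were sorted from whole brain after staining for CD11b, CD45 and CD44. The RNA groups, each of 2 libraries that the labels call independent biological replicates, were untreated wild-type adults of 90 days, labelled Ki67-negative; Ki67-rfp reporter pups of postnatal day 8 (PND8), sorted into Ki67-negative and Ki67-positive cells; and Ki67-rfp mice of 75 days, sorted the same way after repopulation. Repopulation here means a diet with PLX5622, an inhibitor of the CSF1 receptor that microglia need to survive, from day 55 for 17 days, followed by 3 days of recovery. Histone acetylation (H3K27ac), a mark of active enhancers and promoters, was profiled in wild-type mice, in fixed cells stained for Ki67, with 2 libraries a group. These groups were adults of 60 and 65 days, PND8 Ki67-negative and Ki67-positive cells, both Ki67 classes from mice of 90 days fed cuprizone, a demyelinating toxin, for 4 weeks, and Ki67-positive repopulating cells from mice of 90 days with PLX5622 from day 70 for 17 days and 3 days of recovery. H3K4me3, a promoter mark, was measured in 2 adult libraries of 75 days, the RNA polymerase II subunit Rpb2 in 2 adult libraries of 60 and 65 days and 1 PND8 Ki67-positive library, and open chromatin (ATAC-seq) in 1 library each of adults of 80 days, PND8 Ki67-positive cells and Ki67-positive repopulating cells of 75 days. For the latter pair of ATAC-seq libraries the titles name the Ki67rfp reporter while the genotype field reads WT. The title of adult Rpb2 replicate 2 reads 60 days, while that of its input reads 65, the age given above. The headers of both adult H3K27ac lists carry the word vehicle, and the header of repopulating H3K27ac replicate 1 gives another age than its label. Adult and repopulating RNA groups also differ in genotype, age and drug, which cannot be told apart from repopulation. Adult and PND8 RNA groups differ in genotype as well as age, and those cannot be told apart either.

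The 5 genes belong to separate systems. Gcm2 encodes a transcription factor of the glial cells missing family and is known as the regulator that parathyroid development requires, while Fbn2 encodes fibrillin-2, a glycoprotein of extracellular microfibrils that is most abundant in development. Shisa7 encodes a single-pass membrane protein that associates with AMPA-type and GABA-A receptors in neurons. Cd36 encodes a scavenger receptor that binds oxidised lipoproteins and long-chain fatty acids on macrophages, and Spn encodes CD43 (sialophorin), a heavily sialylated mucin of leukocyte surfaces.

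The RNA libraries held between 6865903 and 10287876 counts, with 13557 to 14728 genes detected. Mki67, the transcript of the sorted marker, was at 13.4 and 11 CPM (counts scaled to library size) in the adult libraries, 242 and 282 in PND8 Ki67-negative, 920 and 1110 in PND8 Ki67-positive, 336 and 463 in the repopulating Ki67-negative and 930 and 1090 in repopulating Ki67-positive libraries. The Ki67-negative gates were therefore not free of Mki67 RNA. The summed level of 12 microglia markers lay between 8220 and 10900 CPM in every group. Border macrophage markers, 8 genes, summed to 63.6 to 76.7 CPM in adults, 616 to 868 at PND8 and 28.8 to 44.6 in repopulation, where Lyve1 was at 0 in all 4 libraries. Most of the PND8 sum was Mrc1, at 51.2 CPM in adults and 626 and 824 in PND8 Ki67-negative and Ki67-positive cells. In the same order Lyve1 stood at 2.45, 19.9 and 4.76 CPM, and Cd163 at 6.18, 7.82 and 2.89. Neutrophil markers summed to 55 to 213 CPM in adults and at most 1.44 in repopulation. Astrocyte markers, 8 genes, summed to 240 to 248 CPM in adults, 61.5 to 431 at PND8 and 411 to 568 in repopulation. Most of that sum was Slc1a3. The other 7 summed to 5.38 to 7.4 CPM in adults, 9.99 to 26.8 at PND8 and 10.7 to 17.2 in repopulation. Gfap was at 3 or 4 counts in each repopulating library. Aldh1l1 stood at 0.289 CPM in adults and at 9.23 and 5.12 in repopulating Ki67-negative and Ki67-positive cells. In the same order Slc1a2 stood at 2.86, 2.03 and 1.64 CPM. The part of astrocyte markers in the results was not tested. In bulk RNA a change in the share of a cell type and a change in RNA per cell cannot be told apart. Codes in the file headers split the RNA libraries into 4 sets, and no other RNA library shared the adults' code, so that code and the adult group cannot be told apart.

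**Figure D1:**
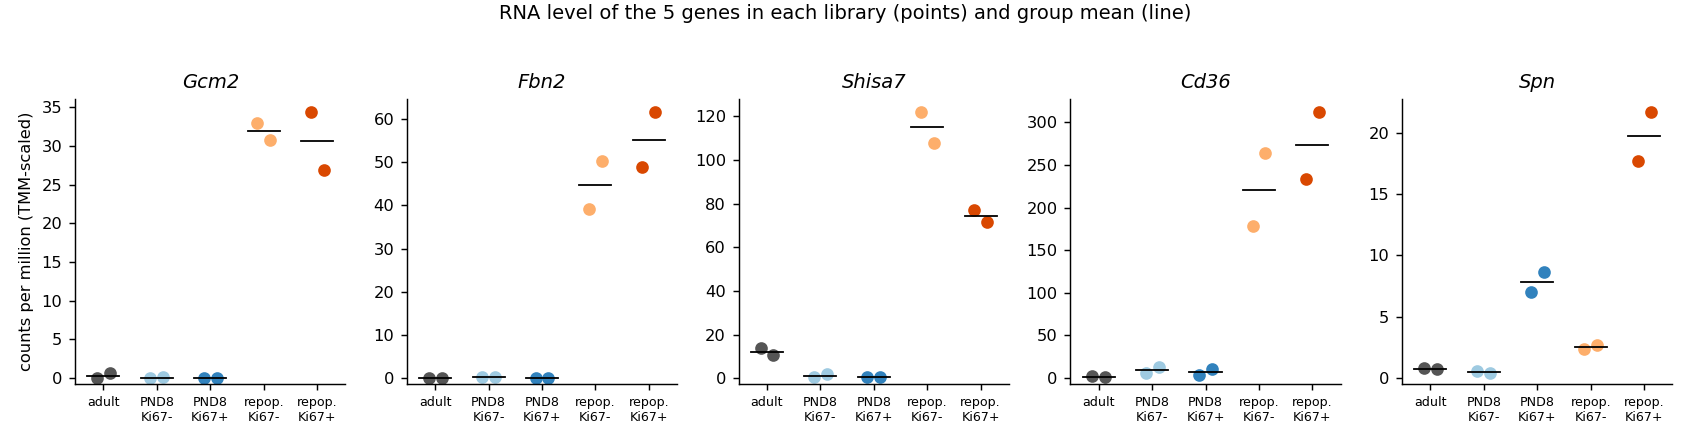
RNA level (CPM, linear axis from 0, TMM-scaled) of each gene, with 1 point per library and a line at the mean of 2 libraries. Gcm2, Fbn2, Shisa7 and Cd36 lie above every adult and PND8 library in all 4 repopulating libraries, whereas the Spn points of repopulating Ki67-negative cells (2.39 and 2.74) lie below those of PND8 Ki67-positive cells (7.05 and 8.67).

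Gcm2 (NM_008104, mm10 chr13:41101427-41109988, minus strand) went from almost no reads to a moderate level. Its counts were 0 and 5 in adults, 0 and 1 in PND8 Ki67-negative, 0 and 0 in PND8 Ki67-positive, 317 and 202 in the repopulating Ki67-negative and 297 and 187 in repopulating Ki67-positive libraries. In CPM the repopulating libraries stood at 33 and 30.8 (Ki67-negative, 31.9 ± 1.57 SD, n = 2) and 34.4 and 26.9 (Ki67-positive, 30.6 ± 5.26 SD, n = 2), and no group of the other 3 overlapped them. The lowest repopulating Ki67-negative library was 50.4-fold above the highest adult library, and the lowest Ki67-positive library 44-fold. All PND8 libraries were at or below 3 counts, the limit that a count of 0 allows, so the difference from PND8 is a lower bound, at least 85.9-fold in Ki67-negative and at least 88.3-fold in Ki67-positive cells.

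Gcm2 ranges of the Ki67 gates overlapped in repopulation, and the difference did not pass the test. Its log2 difference, Ki67-positive minus Ki67-negative, was -0.06 (SE 0.26, edgeR adjusted p = 0.953), and within the header codes, which each hold 1 library of either gate, it was 0.06 and -0.19. The parathyroid genes around Gcm2 were near 0: over all 10 libraries the highest count was 2 for its paralog Gcm1, 3 for the calcium sensor Casr and 1 for the hormone Pth. Of the 12 listed genes of that programme 1 had enough reads to test.

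The start site of Gcm2 carried called H3K27ac peaks mainly in repopulation. The summed signal in called peaks, in tags normalised to 10000000 per library, was 64.5 and 53.9 in the repopulating libraries over chr13:41109178-41110549, 11.1 in cuprizone Ki67-positive replicate 2, and without a called peak in the 9 other H3K27ac libraries. A region 9.3 kb upstream, inside the neighbouring gene Sycp2l, was called in all 12 libraries. It held 21.4 and 76.4 in adults, 44.6 to 78.0 at PND8, 94.4 and 160.5 in cuprizone Ki67-negative, 178.6 and 242.0 in cuprizone Ki67-positive and 218.1 and 308.4 in repopulating cells, whose ranges overlap those of cuprizone Ki67-positive cells. Sycp2l RNA was also higher in repopulating Ki67-positive cells than in adults (log2 2.72, SE 0.47, edgeR adjusted p = 4.1e-04), and its part in the Gcm2 result was not tested. No ATAC-seq peak was called within 1 kb of the Gcm2 start in any of the 3 libraries.

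The 250 bases before the annotated starts are shown from RefSeq (GRCm38.p6, the mm10 assembly, all genes on the minus strand, written 5′ to 3′ along the gene), because the chromatin data bear on them. The promoter table matched 4 of the 5 genes, without Fbn2. Capitals mark bases under an ATAC-seq peak of the repopulating library. These are the stretches chr13:41109989-41110238, chr7:4844697-4844946, chr5:17835897-17836146 and chr7:127137824-127138073.
Gcm2: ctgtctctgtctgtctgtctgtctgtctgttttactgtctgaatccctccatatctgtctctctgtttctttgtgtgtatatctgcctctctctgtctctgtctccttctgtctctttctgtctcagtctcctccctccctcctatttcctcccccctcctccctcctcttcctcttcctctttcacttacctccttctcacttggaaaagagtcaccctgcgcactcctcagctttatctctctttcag
Shisa7: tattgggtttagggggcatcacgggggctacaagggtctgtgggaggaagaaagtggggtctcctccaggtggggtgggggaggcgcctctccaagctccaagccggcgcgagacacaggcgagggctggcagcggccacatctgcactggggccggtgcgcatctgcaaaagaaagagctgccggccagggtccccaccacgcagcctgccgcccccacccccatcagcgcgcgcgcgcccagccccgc
Cd36: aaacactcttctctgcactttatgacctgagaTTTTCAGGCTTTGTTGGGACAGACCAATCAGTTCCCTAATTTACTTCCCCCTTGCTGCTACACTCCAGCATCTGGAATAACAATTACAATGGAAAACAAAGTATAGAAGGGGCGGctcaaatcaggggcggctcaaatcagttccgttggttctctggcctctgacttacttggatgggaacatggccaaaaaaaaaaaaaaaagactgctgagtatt
Spn: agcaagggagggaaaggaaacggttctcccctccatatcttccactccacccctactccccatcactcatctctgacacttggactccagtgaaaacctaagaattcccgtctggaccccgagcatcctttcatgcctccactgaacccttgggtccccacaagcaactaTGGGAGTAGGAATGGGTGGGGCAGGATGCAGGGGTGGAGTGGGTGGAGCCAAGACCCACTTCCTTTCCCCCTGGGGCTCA
The 4 stretches differ in base composition. Shisa7 has 69.6% G or C and 18 CpG dinucleotides, against medians of 52.4% and 6 over the first 250 bases of 32851 promoters, whereas Gcm2 has 48.8% and 1, Cd36 43.2% and 3, and Spn 56.8% and 3. Short motifs were looked up on both strands after the sequences had been read. GGAAGT, a core of ETS-family sites such as that of the macrophage factor PU.1, was in 19.7% of all promoters and in Cd36 and Spn, 176 and 23 bases before the start, in both read as its reverse complement inside the capitals. CCAAT was in 33.8% of promoters, among them Cd36 and Shisa7. TGANTCA (AP-1, 6.75% of promoters), CACGTG (6.02%), TTTGAA (16%) and TATAAA (12.4%) were in none of the 4 stretches.

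Fbn2 (NM_010181, mm10 chr18:58008623-58209926, minus strand) had no read in adults and at least 330 in each repopulating library. Its counts were 0 and 0 in adults, 3 and 3 in PND8 Ki67-negative, 0 and 1 in PND8 Ki67-positive, 376 and 330 in the repopulating Ki67-negative and 422 and 428 in repopulating Ki67-positive libraries. All 6 libraries outside repopulation were at or below 3 counts. The repopulating levels were 39.1 and 50.3 CPM in Ki67-negative cells (44.7 ± 7.88 SD, n = 2) and 48.8 and 61.6 CPM in Ki67-positive cells (55.2 ± 9.05 SD, n = 2). Against 3 counts per library these means were at least 122-fold and at least 151-fold above adults. The ranges of both gates overlapped (log2 0.31, SE 0.19, edgeR adjusted p = 0.468), though Ki67-positive cells were higher within both header codes, by 0.32 and 0.29.

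Other microfibril and elastic fibre genes were partly higher too. Of 27 listed genes 14 could be tested, and 7 were higher and none lower in repopulating Ki67-positive cells than in adults, against 23.9% and 21.0% of all genes. Their median log2 difference was 0.59, that of all genes -0.01. At PND8, in Ki67-positive cells against adults, 7 were higher and 1 lower, where 25.1% of all genes were higher and 24.3% lower. Fbln5, among those higher at PND8, passed the filter on low counts through PND8 libraries, so that count is a description. Fbln1, encoding the matrix protein fibulin-1, rose from 2.38 to 26.9 CPM in repopulating Ki67-positive cells (log2 3.50, SE 0.29, edgeR adjusted p = 6.4e-07). In PND8 Ki67-positive cells Fbln1 stood at 14.5 CPM (log2 2.60 against adults, edgeR adjusted p = 1.2e-05). Emilin1 and Emilin2, elastic fibre glycoproteins, rose from 4.93 to 41.5 CPM (log2 3.07, edgeR adjusted p = 1.2e-07) and from 1.12 to 5 CPM (log2 2.12, edgeR adjusted p = 0.0046). In PND8 Ki67-positive cells they stood at 85 and 6.99 CPM (edgeR adjusted p = 5.7e-09 and 7.3e-04 against adults), above their repopulating means. Of the partners of fibrillin-2, Fbn1 had no reads in repopulating cells and 3.61 CPM in PND8 Ki67-negative cells, Mfap5 none in any library, and elastin (Eln) at most 3 counts. Fibroblast and mural cell markers, 8 genes, summed to 1.34 to 2.31 CPM in adults and 2.39 to 3.96 in repopulation. In each repopulating group 6 of 8 were at or under 3 counts, with Dcn, Lum and Col1a1 at 0 or 1 count. Pdgfrb stood at 0.881 CPM in adults and at 2.16 and 2.3 in repopulating Ki67-negative and Ki67-positive cells. In the same order Acta2 stood at 0.714, 0.794 and 0.649 CPM. The part of such cells in the Fbn2 result was not tested.

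The H3K27ac at Fbn2 lay mostly inside the gene. A region centred 48.4 kb downstream of the start had no called peak in the adult and PND8 libraries or in cuprizone Ki67-negative replicate 1, and then 68.6 in cuprizone Ki67-negative replicate 2, 136.5 and 170.9 in cuprizone Ki67-positive and 252.7 and 366.5 in repopulating libraries. The same region held adult H3K4me3 peaks of 74.8 and 57.4, and ATAC-seq signal of 33.0 in adults, 67.8 at PND8 and 228.2 in repopulation. A region at 73.9 kb followed the same order, with 19.0 and 13.7 in cuprizone Ki67-positive and 72.3 and 57.6 in repopulating libraries. At the start site H3K27ac peaks were called in the repopulating libraries alone, at 11.4 and 16.7. These start-site values are low against the median peak of each H3K27ac list, 90.1 to 139 tags.

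Shisa7 (NM_172737, mm10 chr7:4825552-4844696, minus strand) was present in adults, near the detection limit in pups and high in repopulation. It stood at 13.8 and 10.6 CPM in adults (12.2 ± 2.22 SD, n = 2), 0.619 and 1.74 in PND8 Ki67-negative, 0.661 and 0.347 in PND8 Ki67-positive, 122 and 108 in the repopulating Ki67-negative (115 ± 9.97 SD, n = 2) and 77.1 and 71.4 in repopulating Ki67-positive libraries (74.3 ± 4.07 SD, n = 2). Adults, pups and both repopulating gates did not overlap. Against adults the repopulating log2 difference was 3.23 (SE 0.18) in Ki67-negative and 2.60 (SE 0.18) in Ki67-positive cells.

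Both neonatal gates held less Shisa7 than adults. The log2 difference was -4.55 in Ki67-positive cells (SE 0.36, edgeR adjusted p = 3.5e-07) and -3.27 in the Ki67-negative gate (SE 0.30, edgeR adjusted p = 1.6e-06). These tests share the adult libraries with the contrast that chose the genes. In repopulation Shisa7 was lower in Ki67-positive than in Ki67-negative cells (log2 -0.63, SE 0.16, edgeR adjusted p = 0.0486), with -0.66 and -0.59 within the header codes. That call was lost without any 1 of the 4 repopulating libraries (log2 -0.72 to -0.54), and the adjusted p was 0.0719 with library sizes alone and 0.153 with limma on TPM.

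Few relatives of Shisa7 and few receptor subunits had reads. Of 24 listed AMPA receptor, auxiliary and related genes 7 could be tested, and 4 were higher and none lower in repopulating Ki67-positive cells than in adults (median log2 0.63, all genes -0.01), against 23.9% and 21.0% of all genes. At PND8, Ki67-positive, 3 were higher and 3 lower, against 25.1% and 24.3%. Shisa2, among those higher in repopulation, and Gria2, among those higher at PND8, passed the filter on low counts through those same groups. Both counts of higher genes are therefore descriptions. Shisa5, a family member of the endoplasmic reticulum, rose from 186 to 272 CPM (log2 0.55, SE 0.09, edgeR adjusted p = 2.3e-04), and Cacng8, a transmembrane AMPA receptor regulatory protein, from 1.91 to 5.64 CPM (log2 1.56, SE 0.45, edgeR adjusted p = 0.0121). Shisa2 had at most 1 count in an adult library and 1.22 CPM in repopulating Ki67-positive cells. The receptor genes Gria1 and Gria3 reached at most 5 and 3 counts in any library, and Gabra5 at most 1. Gria2 had 0 counts in adults and at most 16 in any library, and stood at 0.461 CPM in repopulating Ki67-positive cells. At PND8 it stood at 1.32 CPM (SD 0.577) in Ki67-negative and 0.881 CPM (SD 1.25) in Ki67-positive cells. It passed the filter on low counts through PND8 libraries, so its differences from adults are given by these values alone. Neuron markers, 8 genes, summed to 21.3 to 24.3 CPM in adults, 26 to 31.9 in PND8 Ki67-negative, 15.8 to 20.8 in PND8 Ki67-positive and 3.6 to 9.16 in repopulating libraries, and their part in the Shisa7 result was not tested.

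A region at the Shisa7 start (chr7:4842235-4845032), which also overlaps Gm36127 and Isoc2b, had H3K27ac peaks of 93.2 and 101.3 in repopulation, 62.1 in cuprizone Ki67-negative replicate 2 and 97.0 in cuprizone Ki67-positive replicate 2. No peak was called there in adult, PND8 or cuprizone replicate 1 libraries. The cuprizone replicate 2 libraries share a header code with repopulating replicate 2. Adult H3K4me3 was called there at 31.9 and 50.7, and ATAC-seq at 34.5 in adults, 12.2 at PND8 and 87.4 in repopulation. Isoc2b RNA was higher in repopulating Ki67-positive cells than in adults by log2 0.62 (SE 0.19, edgeR adjusted p = 0.0185).

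**Figure D2:**
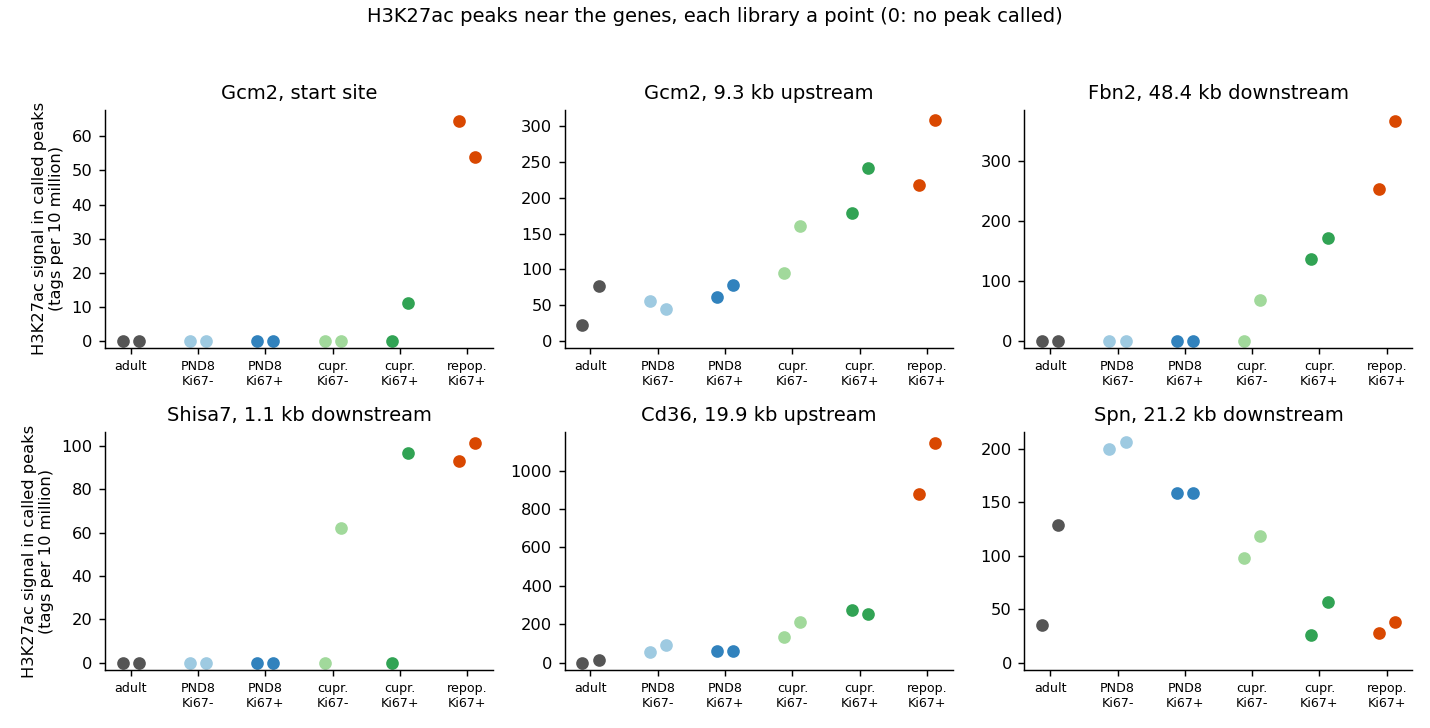
Summed H3K27ac signal in called peaks (normalised tags, linear axis from 0) for 6 regions near the genes, with 1 point per library and 0 where no peak was called. Repopulating libraries are highest at the Gcm2 start, the Fbn2 region and the Cd36 region, and lie below every PND8 library at the Spn region.

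Cd36 (NM_007643, mm10 chr5:17781690-17835896, minus strand) was the most abundant of the 5 genes in repopulation. It stood at 2.2 and 1.22 CPM in adults (1.71 ± 0.69 SD, n = 2), 5.69 and 12.9 in PND8 Ki67-negative, 3.86 and 11.3 in PND8 Ki67-positive, 178 and 264 in the repopulating Ki67-negative (221 ± 61.1 SD, n = 2) and 233 and 312 in repopulating Ki67-positive libraries (273 ± 55.8 SD, n = 2). The lowest repopulating library lay 13.8-fold above the highest PND8 library and 80.9-fold above the highest adult library. PND8 replicate 2 and repopulating replicate 1 share a header code, and within it Cd36 was 12.9 and 11.3 CPM at PND8 against 178 and 233 in repopulation.

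Cd36 was also higher in pups than in adults. The log2 difference was 2.12 in Ki67-positive cells (SE 0.64, edgeR adjusted p = 0.0142) and 2.48 in the Ki67-negative gate (SE 0.61, edgeR adjusted p = 0.00459), with the adult libraries again shared with the choosing contrast. The first call was lost without adult replicate 2 (log2 1.77, adjusted p = 0.0949) or PND8 Ki67-positive replicate 2 (1.16, adjusted p = 0.222), and the second without PND8 Ki67-negative replicate 2 (1.69, adjusted p = 0.0919), all by edgeR. Ki67 classes differed by -0.36 at PND8 (SE 0.45, edgeR adjusted p = 0.727) and by 0.31 in repopulation (SE 0.27, edgeR adjusted p = 0.655). A fit with a term for header code gave 0.31 for repopulation with an edgeR adjusted p = 0.0129.

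The wider set of scavenger receptor and fatty acid uptake genes split evenly. Of 32 listed genes 28 could be tested, and 7 were higher, 7 lower and 14 not called in repopulating Ki67-positive cells against adults (median log2 -0.02, all genes -0.01), beside 23.9% higher and 21.0% lower over all genes. At PND8, Ki67-positive, 11 were higher and 9 lower, where all genes gave 25.1% and 24.3%. Fabp3 and Colec12, both among those higher at PND8, passed the filter on low counts through PND8 libraries, so that count is a description. Colec12, a scavenger receptor, stood at 0.955 CPM in adults, 13.6 in PND8 Ki67-negative and 0.26 in repopulating Ki67-positive cells. Cd163, a haemoglobin scavenger receptor and border macrophage marker, had 35 and 68 counts in adults and 3 and 1 in repopulating Ki67-positive libraries. Fabp4, a fatty acid carrier of macrophages, had no read in any library. Classical monocyte markers, 8 genes, summed to 41.1 to 53.7 CPM in adults and 43.6 to 71.7 in repopulation, and their members differed in direction. From adults to repopulating Ki67-positive cells Fn1 stood at 9 and 42.2 CPM, Plac8 at 0.945 and 11 and Vcan at 2.25 and 4.53, whereas Ccr2 stood at 13.7 and 5.38, Chil3 at 13.2 and 0, F13a1 at 6.65 and 0.663, and Ly6c2 at 1.16 and 0. The part of such cells in the Cd36 result was not tested.

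The region 19.9 kb upstream of the Cd36 start used for counting (chr5:17853105-17858390, within the RefSeq span of the gene) carried more H3K27ac in repopulation than in any other library. Its summed signal was 880.7 and 1142.3 in repopulating libraries, 273.7 and 255.3 in cuprizone Ki67-positive, 131.9 and 212.0 in cuprizone Ki67-negative, 58.2 and 94.3 in PND8 Ki67-negative, 63.7 and 59.2 in PND8 Ki67-positive and 15.2 in adult replicate 2, and adult replicate 1 had no called peak. Called peaks covered 500 bases in adult replicate 2 and 5211 and 4919 in repopulation, so the sums cover unequal lengths. The order was the same within header codes. In the code of repopulating replicate 1 (880.7) adult and PND8 libraries were at 15.2, 94.3 and 59.2, and in that of replicate 2 (1142.3) the cuprizone libraries were at 212.0 and 255.3. ATAC-seq signal in the region was 76.5 in adults, 139.6 at PND8 and 364.6 in repopulation. A further 3 regions, from 6.8 to 44.4 kb upstream, had H3K27ac peaks in both repopulating libraries and no other. At the start site itself an ATAC-seq peak was called at PND8 and in repopulation (10.8 and 12.8), the latter over the capitals of the Cd36 sequence, and H3K27ac was called only in repopulating replicate 2 (21.8).

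Spn (NM_009259, mm10 chr7:127133694-127137823, minus strand) followed the Ki67 gate in pups and in repopulation. It stood at 0.81 and 0.733 CPM in adults, 0.619 and 0.459 in PND8 Ki67-negative, 7.05 and 8.67 in PND8 Ki67-positive (7.86 ± 1.15 SD, n = 2), 2.39 and 2.74 in the repopulating Ki67-negative (2.57 ± 0.247 SD, n = 2) and 17.7 and 21.7 in repopulating Ki67-positive libraries (19.7 ± 2.86 SD, n = 2). The PND8 comparison, which did not choose the gene, gave a log2 difference of 3.86 between the gates (SE 0.38, edgeR adjusted p = 5.2e-05). The description in repopulation was 2.94 (SE 0.29). Spn was higher in PND8 Ki67-positive cells than in adults (log2 3.32, SE 0.37, edgeR adjusted p = 7.3e-06). In PND8 Ki67-negative cells and adults Spn had only 5 to 7 counts per library and passed the filter on low counts through the other groups, so that comparison is given by its values alone. Among Ki67-positive cells the lowest repopulating library was 2.04-fold above the highest PND8 library.

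Partners of CD43 differed in part from adults, in repopulation and at PND8. Of 22 listed sialomucins, their ligands and cytoskeletal linkers 16 could be tested, and 10 were higher and 2 lower in repopulating Ki67-positive cells than in adults (median log2 0.38), where 23.9% of all genes were higher and 21.0% lower. At PND8, Ki67-positive, 7 were higher and 5 lower, beside 25.1% and 24.3% of all genes. Itgal, the alpha chain of the integrin LFA-1, rose from 0.846 to 73.6 CPM (log2 6.44, SE 0.54, edgeR adjusted p = 6.7e-07), and Cd44, the hyaluronan receptor, from 4.74 to 47.8 CPM (log2 3.33, edgeR adjusted p = 2.6e-07). Cells were stained for CD44 before sorting, and the gate is not given in the sources used here. Siglec1, a sialic acid-binding macrophage receptor known to bind CD43, rose from 17 to 80 CPM (log2 2.23, edgeR adjusted p = 1.3e-07) and stood at 142 CPM in repopulating Ki67-negative cells. These 3 genes were also higher in PND8 Ki67-positive cells than in adults. There Itgal stood at 30.2 CPM (log2 5.15, edgeR adjusted p = 8.2e-06), Cd44 at 15.9 (log2 1.74, edgeR adjusted p = 1.3e-04) and Siglec1 at 30.4 (log2 0.84, edgeR adjusted p = 9.0e-04). Nonclassical monocyte markers without Spn, 6 genes that include Itgal, summed to 56.6 to 59.2 CPM in adults and 94.8 to 122 in repopulation. Without Itgal the other 5 summed to 55.2 to 58.9 CPM in adults and 34 to 52.8 in repopulation. Of these, Treml4 had at most 14 counts and Cd300e at most 4 in any library, and the part of such cells in the Spn result was not tested.

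**Figure D3:**
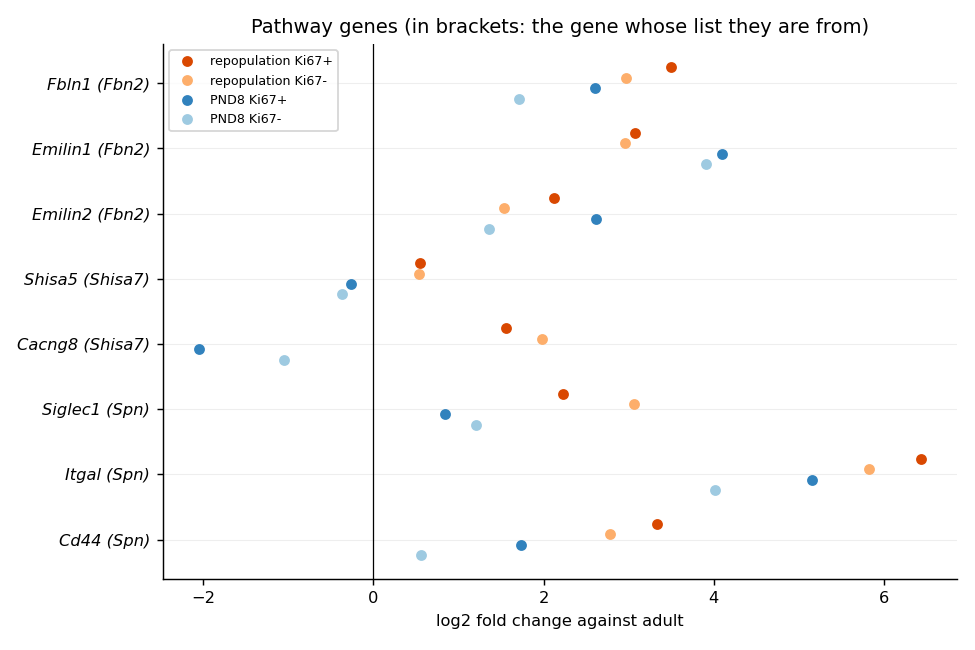
Log2 fold change against adults (x axis) of the named genes from the Fbn2, Shisa7 and Spn lists that had more than 3 counts in adults and in repopulation, with the gene whose list holds each in brackets and 1 point per group of 2 libraries. Itgal and Fbln1 lie farthest to the right in repopulating Ki67-positive cells, at 6.44 and 3.50.

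No H3K27ac peak was called within 1 kb of the Spn start or over its body in any of the 12 libraries. An ATAC-seq peak at the start was called in the repopulating library only, at a low signal of 7.0, over the capitals of the Spn sequence. That list was also the longest, with 95411 peaks down to a signal of 4.66. The adult list held 71642 peaks down to 5.99 and the PND8 list 75296 down to 5.42. Of all genes 60.8% had an ATAC-seq peak at the start in repopulation, 56% in adults and 58.4% at PND8. The part of list length was not tested. The nearest region called in every H3K27ac library, 21.2 kb downstream in Qprt, held 35.4 and 128.6 in adults, 158.8 to 206.5 at PND8 and 28.1 and 38.1 in repopulating libraries. A weaker region 33.3 kb downstream was called in both PND8 Ki67-positive libraries (30.9 and 27.8) and in cuprizone Ki67-positive replicate 2 (13.7), and in no adult, Ki67-negative or repopulating library. Qprt RNA was lower in repopulating Ki67-positive cells than in adults (log2 -1.19, SE 0.42, edgeR adjusted p = 0.0361). It was also lower than in adults at PND8, where the Qprt region held its highest H3K27ac signal. The log2 difference was -1.99 in PND8 Ki67-positive (edgeR adjusted p = 0.00242) and -2.66 in PND8 Ki67-negative cells (edgeR adjusted p = 5.6e-04).

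**Figure D4:**
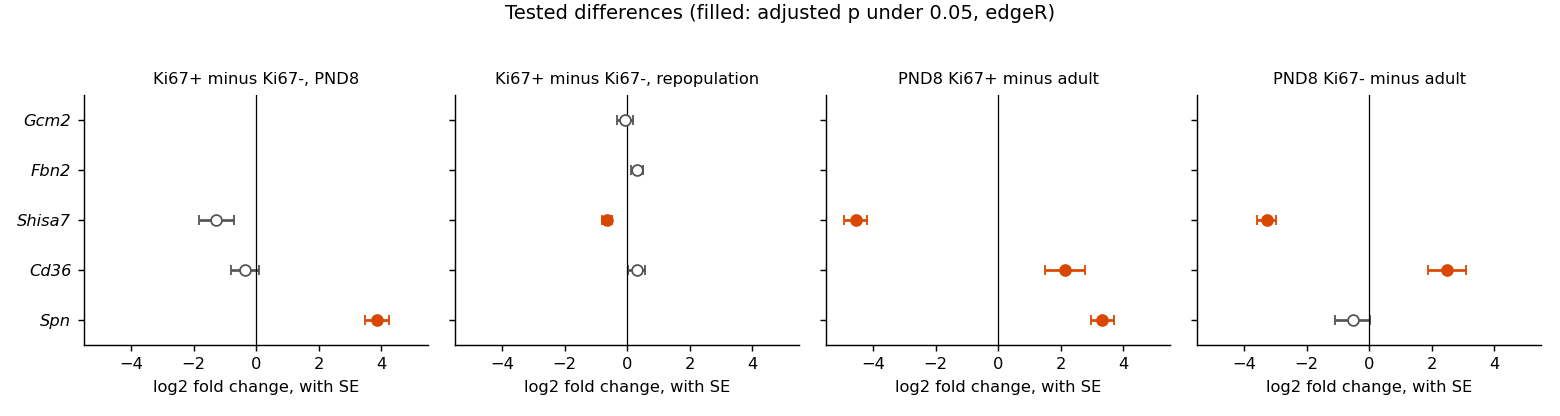
Log2 fold change with SE (x axis) of each gene in the 4 pairwise comparisons that were tested, filled where the edgeR adjusted p is under 0.05. Shisa7 between PND8 gates and Spn in PND8 Ki67-negative cells against adults rest on few counts and are shown as values. Spn is the gene called between Ki67 gates at PND8 (3.86) and Shisa7 the gene called between them in repopulation (-0.63).

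Over the 5 genes, the tests open to them gave few calls between Ki67 gates. Between the gates at PND8, Spn was called and Cd36 was not, where 5.90% of all genes were called. Shisa7, at 3 to 19 counts per PND8 library, passed the filter through other groups, and its value of -1.28 (SE 0.56) is a description. Between the gates in repopulation 1 of 4 was called (Shisa7), where 2.74% of all genes were. Against adults, Shisa7, Cd36 and Spn were called in PND8 Ki67-positive cells, and Shisa7 and Cd36 in PND8 Ki67-negative cells, where 49.5% and 46.8% of all genes were called and such calls were common. The difference between the Ki67 effects of repopulation and PND8 was 0.65 for Shisa7 (SE 0.58) and 0.66 for Cd36 (SE 0.52), with an edgeR adjusted p = 0.96 for both, that of Shisa7 resting on the same few PND8 counts. In that comparison edgeR called 0% of all genes, 613 had an unadjusted p under 0.05, and DESeq2 called 3.

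The TPM of Cd36, Shisa7 and Spn rests on another transcript than their counts, that of Spn with 1476 bases against 3747. On this scale per transcript length the order in repopulating Ki67-positive cells was Cd36 (113), Shisa7 (17.7), Gcm2 (15.3), Spn (8.11) and Fbn2 (7.56). Cd36 lay apart, while the libraries of Shisa7 and Gcm2 overlapped, as did those of Spn and Fbn2. In repopulating Ki67-negative cells the order was Cd36 (92.3), Shisa7 (27.7), Gcm2 (16), Fbn2 (6.15) and Spn (1.14), with no overlap between neighbours.

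At the chromatin level 3 of the 5 genes (Gcm2, Fbn2 and Shisa7) had an H3K27ac peak within 1 kb of the start in both repopulating libraries and in neither adult library, which held for 2.89% of all 20999 genes. Over the gene body 3 genes met the same rule, against 3.62% of all genes, and within 50 kb 1 did (Fbn2), against 2.70%. With peaks from the upper part of each list by score alone, none of the 5 met it at the start, against 3.88% of all genes, and with the centre of the peak in the window 2 did (Gcm2 and Fbn2). Summed signal within 50 kb was higher in both repopulating than in both adult libraries for 4 of 5 genes, against 37.7% of all genes, and higher than in the 10 other libraries for 3 of 5 (Gcm2, Fbn2 and Cd36), against 3.54%. No Rpb2 peak was called within 1 kb of any of the 5 starts, where 36% and 30.6% of all genes had one in adults and 48.4% at PND8, and no repopulating cells were profiled for Rpb2. Called H3K4me3 was present at the adult start of Shisa7 alone, as at 60.7% and 60% of all genes.

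Patterns over the 10 RNA libraries are given as Pearson r of log2 CPM, a description, since the points share 4 repopulating libraries. Gcm2 and Fbn2 had r = 0.97, as had Fbn2 and Cd36, and Shisa7 and Cd36 had 0.73. Spn had 0.28 to 0.59 with the others. The genes most like Gcm2 were Adar (0.990), Adipor2 (0.989) and Xaf1 (0.989), and those most like Fbn2 were Zfp395 (0.997), Dhx58 (0.993) and Pml (0.993). Among those most like Shisa7 were Notch4 (0.997) and Slc8b1 (0.995), and those most like Cd36 were Pigs (0.994), Zfp503 (0.990) and Sdc3 (0.990). Such likeness was common: 119 to 183 genes had r of at least 0.95 with each of these 4 genes. For Spn 5 genes did, led by C2cd5 (0.985), Sympk (0.963) and Rdm1 (0.963). C2cd5 stood at 31.3 CPM in adults, 30.3 and 59.5 in the PND8 gates and 45.7 and 71.5 in the repopulating gates, Ki67-negative first.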

How the data were processed

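RNA was sequenced from sorted microglia as polyA-selected, strand-marked libraries, per the labels' protocols. The authors deposited raw read counts per gene and TPM values (transcript abundance scaled for length and depth, with sums of 472498.1 to 486778.7 over the genes used here) from a table whose row names another transcript for 4532 genes. Per the submitters' processing notes the tools were STAR 2.7.0f, Bowtie2 2.3.4.1, HOMER 4.11 and DESeq2, on mm10 coordinates. The deposited HOMER peak lists give, per the file headers, a signal per peak in tags normalised to 10000000 per library and a score per peak, which are the authors' own values. Per the same headers, peaks were called per library, and a list holds called peaks only. H3K27ac lists held 32.6% to 69.7% of their tags in peaks. The lowest share was that of adult replicate 1, which also had the fewest peaks (19572, against 24903 in adult replicate 2). With adult replicate 1 as the only adult list, the start-site H3K27ac rule held for 6.92% of all genes, against 2.89% with both.

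Counts were scaled by TMM and fitted with edgeR 4.0.16 (R 4.3.3) quasi-likelihood models over all 10 RNA libraries with 1 term per group, on the 12230 of 20999 genes that passed filterByExpr, with Benjamini-Hochberg adjustment over all of them and a threshold of 0.05. A value of 3 counts per library was the floor for fold changes. Peaks were assigned by an overlap of at least 1 base with the start site and 1 kb or 50 kb each side, or with the gene body. The scripts were tested on simulated data. Alternatives were DESeq2 1.42.0, limma 3.58.1 on log2(TPM + 1) and log2(TPM + 0.1), other scaling and filters, the replicate block, the header code as a batch, and each library left out.

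The 5 genes and the gene lists were chosen with earlier results of these data known. Named besides them are the 3 genes with the highest Pearson r to each, the 3 listed genes of largest called change in repopulating Ki67-positive cells against adults, listed partners near 0, neighbours of called regions and Mki67. Some genes this rule picks are not reported here.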

Additional observations from a re-analysis of the deposited data

How the results depend on the processing

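Of 189 alternative values for the comparisons and the peak count, 169 kept their direction and their side of the threshold, 10 lost a call, 2 gained one, 6 changed sign without a call and 2 counts moved. Among the 189 are 11 for Shisa7 between PND8 gates and 10 for Spn in PND8 Ki67-negative cells against adults. Those comparisons are descriptions, so the tally is not a measure of the tested results alone. Depth limits Gcm2 and Fbn2 outside repopulation, where nearly all libraries are at or under 3 counts, and 2 libraries a group limit every test. A call lost when a library is left out comes with a lone sample assumed to vary like the other groups. Where a value moved, the cause was not tested.

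The Shisa7 difference between Ki67 gates in repopulation was -0.62 with library sizes only (edgeR adjusted p = 0.0719), -0.62 with limma on log2(TPM + 1) (adjusted p = 0.153) and -0.64 on log2(TPM + 0.1) (adjusted p = 0.465), and -0.72 to -0.54 with 1 library left out, uncalled in all 4 cases. That of Cd36 was 0.31 and called with the header code as a batch (edgeR adjusted p = 0.0129), in a range of adjusted p of 0.0129 to 0.941. Spn at PND8 Ki67-negative against adults, a description, was -2.04 with limma on log2(TPM + 0.1), where the TPM table lists 0 for a library with 5 counts. The Shisa7 difference of Ki67 effects was -0.42 with limma on log2(TPM + 1).

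With 1 library left out, Cd36 against adults ran from 1.16 to 2.71 at PND8 Ki67-positive and 1.69 to 2.96 at PND8 Ki67-negative, and between PND8 gates from -1.29 to 0.43. Differences of Ki67 effects ran from -0.40 to 1.13 for Shisa7 and -0.14 to 1.58 for Cd36, and Gcm2 between repopulating gates from -0.26 to 0.11. The count of 3 genes with start-site H3K27ac was 0 in the upper part of each list by score, 1 within 50 kb, 2 by the centre of the peak, 3 over the gene body, and 3 to 4 with 1 library left out. It was also 3 with the start of the transcript in the TPM table, an alternative chosen after seeing the data.

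Replicate numbers match between groups, and same-numbered libraries of the Ki67 gates of PND8 or of repopulation also share a header code. The main fit has no term for this pairing. Deviations of same-numbered libraries correlated at 0.34 between the PND8 gates, 0.26 between the repopulating gates and -0.01 to 0.01 between adults and the others. With the replicate block, Shisa7 between repopulating gates was -0.63 (edgeR adjusted p = 0.00816), no call on the 5 genes changed, and 1228 genes were called between PND8 gates and 711 between repopulating gates, against 721 and 335. Those counts were 1290 and 736 without a filter on low counts, 1862 and 1213 with the header code, 475 and 202 with limma on log2(TPM + 0.1), and 392 between PND8 gates with only the groups compared. With 1 library left out they reached 220 and 1113 at PND8, and 105 and 122 in repopulation. For the difference of Ki67 effects edgeR called 0 genes, 52 without a filter, 28 with the header code, 2 with the block and up to 71 with 1 library left out, and DESeq2 called 3. The 3 genes most like each of the 5 by Pearson r included 0 or 1 of those by Spearman rho.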
